A study of Homo sapiens with 12 samples.

Results

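Genes of mitosis and of the G2/M phase of the cell cycle were followed in CCD-18Co cells. This is an established human line of colon myofibroblasts, contractile cells of the connective tissue under the gut epithelium. The set holds 56 genes, chosen by symbol as genes with known roles in these phases. Earlier results of these data were known when it was chosen. Each gene had exactly 1 row in the deposited table of 21893 genes. The cells were treated for 24 h with 100 nM 1,25(OH)2D3 (the active form of vitamin D), with 100 ng/ml recombinant human Wnt3A (a canonical Wnt ligand), with both agents, or with the vehicles alone, which were ethanol for 1,25(OH)2D3 and BSA in PBS for Wnt3A. Each of the 4 groups had 3 RNA-seq libraries, 1 from each of 3 numbered independent experiments (12 libraries in all). All groups share 1 cell line grown in medium with foetal bovine serum, so the experiments are separate cultures of the same cells and not separate donors.

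Cells that have copied their DNA pass through G2 and enter mitosis when CDK1, bound to cyclin A or cyclin B, becomes active. Aurora and Polo-like kinases and kinesin motors then build the spindle, condensin compacts the chromosomes, and the kinetochores attach them to microtubules. The spindle checkpoint holds the anaphase-promoting complex back until every chromosome is attached, after which the sister chromatids separate and the cell divides. The genes for these proteins are repressed in resting cells by the DREAM complex and are switched on late in the cycle by B-MYB with MuvB and by FOXM1, largely through a promoter element called the cell cycle genes homology region (CHR), often beside CCAAT boxes that bind NF-Y. Wnt ligands act through β-catenin and TCF/LEF factors, and 1,25(OH)2D3 acts through the vitamin D receptor, which binds direct repeats of a half-site.

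The promoters of 5 of the genes are printed. Of these, *KIF18A*, *CENPF*, *PLK1* and *CDC20* were among the genes called in both agents against Wnt3A, described further on. The other, *MKI67*, is the most widely used proliferation marker. The sequences are RefSeq windows of GRCh38.p14 that run from 250 bases before to 50 bases after the start of the gene, on the strand of the gene, 5′ to 3′. Capitals mark CHR elements (TTTGAA or TTTAAA) and CCAAT boxes on either strand, so TTCAAA and ATTGG are the same elements read on the other strand.
KIF18A, chr11:28108107-28108406, minus strand: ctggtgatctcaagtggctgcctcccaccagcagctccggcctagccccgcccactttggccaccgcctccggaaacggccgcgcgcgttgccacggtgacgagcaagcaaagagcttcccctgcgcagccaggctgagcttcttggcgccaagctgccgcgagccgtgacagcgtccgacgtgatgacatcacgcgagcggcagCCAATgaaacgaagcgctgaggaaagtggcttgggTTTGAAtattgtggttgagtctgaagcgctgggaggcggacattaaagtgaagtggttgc
CENPF, chr1:214602945-214603244, plus strand: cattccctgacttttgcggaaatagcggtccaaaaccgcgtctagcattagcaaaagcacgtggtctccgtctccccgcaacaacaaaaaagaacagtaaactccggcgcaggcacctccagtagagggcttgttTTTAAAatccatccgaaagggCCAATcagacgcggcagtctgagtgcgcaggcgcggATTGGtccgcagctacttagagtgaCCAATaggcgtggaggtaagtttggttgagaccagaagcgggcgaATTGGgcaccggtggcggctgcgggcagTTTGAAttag
PLK1, chr16:23678639-23678938, plus strand: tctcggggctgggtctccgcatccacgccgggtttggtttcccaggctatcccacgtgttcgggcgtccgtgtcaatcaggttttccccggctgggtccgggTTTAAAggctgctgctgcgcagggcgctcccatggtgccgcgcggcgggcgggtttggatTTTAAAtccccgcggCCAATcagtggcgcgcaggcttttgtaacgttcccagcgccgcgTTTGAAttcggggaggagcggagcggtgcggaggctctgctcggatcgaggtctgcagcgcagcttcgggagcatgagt
CDC20, chr1:43358731-43359030, plus strand: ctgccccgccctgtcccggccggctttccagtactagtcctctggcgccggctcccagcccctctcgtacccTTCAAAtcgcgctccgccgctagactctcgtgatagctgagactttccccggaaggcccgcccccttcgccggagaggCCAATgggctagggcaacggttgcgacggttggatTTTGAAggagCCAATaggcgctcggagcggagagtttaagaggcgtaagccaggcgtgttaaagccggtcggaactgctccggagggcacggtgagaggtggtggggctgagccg
MKI67, chr10:128126374-128126673, minus strand: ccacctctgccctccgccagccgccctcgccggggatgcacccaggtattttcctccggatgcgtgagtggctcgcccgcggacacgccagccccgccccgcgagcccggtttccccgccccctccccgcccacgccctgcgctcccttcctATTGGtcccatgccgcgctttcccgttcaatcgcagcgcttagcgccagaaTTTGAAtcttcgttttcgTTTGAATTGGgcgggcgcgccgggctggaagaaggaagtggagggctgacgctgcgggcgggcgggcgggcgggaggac
*KIF18A* has a CCAAT box 45 bases and a TTTGAA 10 bases upstream of its start. *PLK1* has its CCAAT box 73 bases and TTTGAA 29 bases upstream, with TTTAAA elements at 148 and 88 bases. In *CENPF* the TTTGAA begins 40 bases after the start and the TTTAAA 115 bases before it, with CCAAT boxes between them. *MKI67* has TTTGAA elements 47 and 29 bases upstream, and the second runs straight into a CCAAT box on the other strand.

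RefSeq promoter windows were matched by symbol for 48 of the 56 genes, with 60 windows because some genes have more than 1 start. A CHR in either form was present in 47 of the 60 windows (78.3%), against 24.0% of all 34943 windows of the same length. The form TTTGAA was in 65.0% of the windows of the set and in 15.2% of all windows, and TTTAAA in 28.3% and 12.2%. CCAAT was found in 70.0% of the windows of the set and in 34.6% of all windows, and a CHR together with CCAAT in 58.3% and 9.3%. Counted by gene, 43 of 48 had a CHR, 37 a CCAAT box and 32 both in the same window. The shares of all 27167 genes were 27.9%, 39.8% and 11.3%, in the same order. The TCF/LEF letters CTTTGA, which can overlap TTTGAA, were in 5.0% of the windows of the set and in 12.9% of all windows. A strict form of the vitamin D receptor repeat, 2 copies of AGGTCA separated by 3 bases of any kind, were in 0 windows of the set and in 2 of all windows. Both strands were searched for every motif. These matches describe the letters in the windows only, and the absence of a match says nothing about binding elsewhere. No entry was used for *FOXM1*, *AURKA*, *PBK*, *BIRC5*, *BUB3*, *TTK*, *UBE2C* and *TPX2*.

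Libraries held 5363770 to 6261189 read equivalents, which are the deposited values, read here as base counts, divided by the read length of 40. Levels are given as counts per 1000000 of these reads (CPM) after TMM scaling. All 56 genes passed the filter on low counts, with a median of 218 reads per library over the genes, a lowest single value of 11 reads (*CKS1B*) and a highest of 1946 reads (*TOP2A*). Low genes are therefore measured with larger error, and changes of *CKS1B*, whose mean was 24.1 reads, carry standard errors several times those of *TOP2A*. The coordinates of 29 genes of the set overlap another annotated gene, 11 of them a protein-coding one, among them *CCNA2* with *EXOSC9*, *PBK* with *ESCO2*, *BUB1B* with *PAK6* and *ANLN* with *MATCAP2*. Use of the strand in counting is not given in the sources used here, so reads of such pairs may be shared. The mesenchymal markers, including *COL1A1*, *VIM* and *ACTA2*, had 21.7 to 9189 CPM. Of 12 epithelial, endothelial and leukocyte markers, *KRT20*, *CDX2*, *VIL1* and *CD3E* were at 0 in every library, and the highest was *CD68* with up to 204 CPM, while all but *CD68*, *CD14* and *VWF* were at or below 3.68 CPM.

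In the GRCh37 coordinates of the table, *KIF18A* lies at chr11:28042163-28129746 on the minus strand and *CENPF* at chr1:214776532-214837914 on the plus strand. *AURKA* lies at chr20:54944445-54967351 on the minus strand, *PLK1* at chr16:23690201-23701625 and *CDC20* at chr1:43824626-43828873, both on the plus strand. *KIF18A* contains the microRNA gene MIR610, and *CENPF* overlaps 2 pseudogenes, all on the other strand, while no other annotated gene overlaps *AURKA* or *CDC20*. Levels per kilobase were divided by the joined exons of all annotated protein-coding transcripts of a gene. On that basis *CDC25B* (46.1 CPM per kb), *ANLN* (37.3 CPM per kb) and *CCNB1* (37.1 CPM per kb) were highest in vehicle-treated cells. *MAD2L1* (2.46 CPM per kb) and *CKS1B* (2.22 CPM per kb) were lowest. The order depends on this length, which was 5227 bases for *MAD2L1* and can exceed that of the transcripts expressed. The median of the 56 genes was 10.3 CPM per kb. Summed over the set, the level was 3003, 2755 and 2761 CPM with 1,25(OH)2D3, 3803, 3705 and 3765 CPM with Wnt3A, and 3840, 3750 and 3778 CPM with both agents, against 2898, 2761 and 2862 CPM with vehicle. All 6 libraries that received Wnt3A lay above all 6 that did not, and the 3 libraries with 1,25(OH)2D3 alone overlapped the vehicle libraries. In RNA from whole cultures, more cells in G2 and mitosis and more RNA of these genes per cell cannot be told apart.

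**Figure D1:**
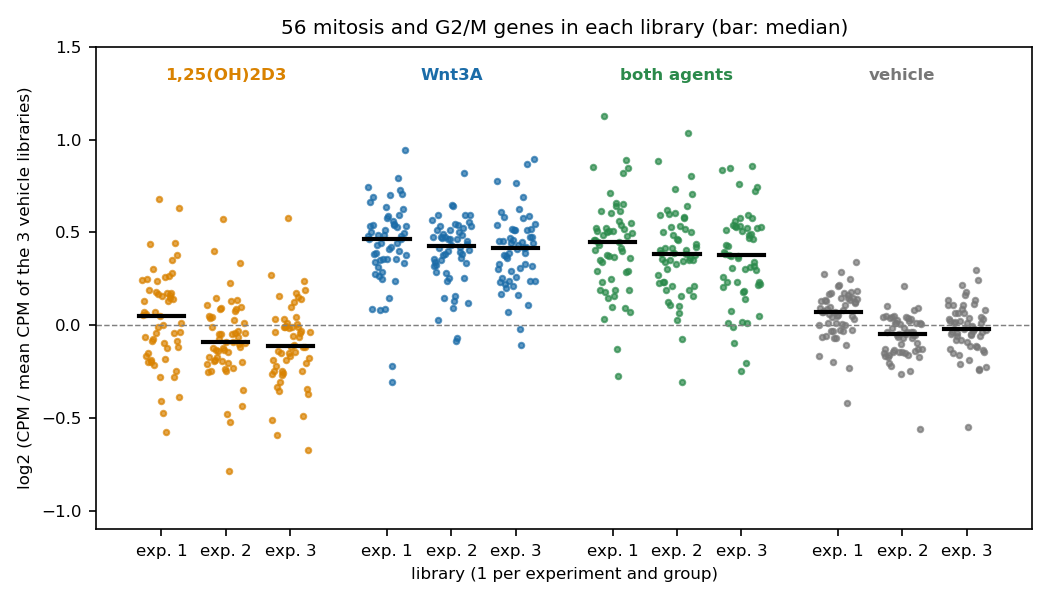
Each point is 1 of the 56 genes in 1 library, as the log2 ratio of its CPM to its mean in the 3 vehicle libraries, with a bar at the median. The medians are 0.05, -0.09 and -0.11 with 1,25(OH)2D3, 0.46, 0.43 and 0.42 with Wnt3A, and 0.45, 0.39 and 0.38 with both agents, against 0.07, -0.05 and -0.02 with vehicle.

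Wnt3A alone raised most of the set. In the edgeR quasi-likelihood test on all 12217 genes kept, p values were adjusted by Benjamini-Hochberg and called below 0.05, and 40 of the 56 genes were higher with Wnt3A than with vehicle and 0 were lower. In the same comparison 4.93% of all genes tested were called higher and 3.34% lower. Log2 fold changes of single genes are given ± their standard error. The median of the set was 0.41, against -0.0038 for all genes tested. The 40 rises were moderate, between 0.27 (*ECT2*, a gene of cytokinesis) and 0.73 (*KIF15*, a spindle kinesin) on the log2 scale, or 1.21-fold to 1.66-fold. In 48 of the 56 genes all 3 Wnt3A libraries lay above all 3 vehicle libraries, as in 11.7% of all genes tested.

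*MKI67*, which encodes the Ki-67 protein that coats mitotic chromosomes, had 272, 239.7 and 277 CPM with Wnt3A, against 144, 167 and 174 CPM with vehicle. The groups did not overlap, and the log2 fold change was 0.70 ± 0.07, adjusted p = 3.46e-07. *TOP2A*, which encodes the topoisomerase that untangles sister chromatids, had 301, 301 and 309 CPM with Wnt3A, against 207, 210.4 and 204 CPM with vehicle, a change of 0.55 ± 0.06, adjusted p = 1.03e-06. *FOXM1*, the transcription factor of the late cell cycle, had 116, 127 and 119 CPM with Wnt3A, against 89.0, 91.8 and 92.3 CPM with vehicle, and its change was 0.41 ± 0.07, adjusted p = 0.000321. Each of these genes was higher in every Wnt3A library than in any vehicle library.

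Among *CDK1*, the cyclins and their regulators, 3 of 8 genes rose with Wnt3A. *CDK1*, the kinase that drives entry into mitosis, had 109.5, 109.7 and 110.2 CPM with Wnt3A, against 83.5, 69.3 and 74.2 CPM with vehicle, a log2 fold change of 0.54 ± 0.07, adjusted p = 1.04e-05. Its partners *CCNA2* and *CCNB2* rose by 0.50 ± 0.09 and 0.41 ± 0.12. The other B-type cyclin gene of the set, *CCNB1*, did not pass the test, with 80.5, 84.1 and 89.8 CPM with Wnt3A, against 85.7, 76.8 and 65.7 CPM with vehicle (0.16 ± 0.09, adjusted p = 0.391). The Wnt3A and vehicle values of *CCNB1* overlap. Of the genes for phosphatases that activate CDK1, *CDC25B* had a log2 fold change of -0.13 ± 0.08 and *CDC25C* of 0.28 ± 0.20, and neither passed. *CKS2*, a small CDK-binding subunit, and its relative *CKS1B* also stayed short of the threshold, at -0.13 ± 0.13 and 0.78 ± 0.27. *CKS1B* was called when the experiment was fitted as a block (adjusted p = 0.022), a fit that called 46 genes of the set higher and 0 lower, against 7.36% and 6.18% of all genes tested.

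Mitotic kinases followed with 3 of 5. *AURKA*, the Aurora kinase of centrosome maturation and spindle assembly, had 48.6, 50.6 and 46.7 CPM with Wnt3A, against 37.4, 34.7 and 31.1 CPM with vehicle, a change of 0.50 ± 0.09, adjusted p = 0.000401. *PLK1*, the Polo-like kinase that acts from mitotic entry to cytokinesis, had 48.9, 45.4 and 44.9 CPM with Wnt3A, against 36.3, 31.8 and 36.6 CPM with vehicle (0.41 ± 0.09, adjusted p = 0.00309). In both genes the lowest Wnt3A library was above the highest vehicle library. *PBK*, a mitotic kinase gene, rose by 0.39 ± 0.10, while *MELK* (0.27 ± 0.10) and *NEK2* (0.30 ± 0.16) did not pass. With the experiment as a block *MELK* was called (adjusted p = 0.0181).

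In the chromosomal passenger complex, which corrects faulty attachments and guides cytokinesis, 3 of 4 genes rose. Its kinase gene *AURKB* had 20.2, 18.1 and 19.1 CPM with Wnt3A, against 13.7, 11.999 and 11.5 CPM with vehicle, a log2 fold change of 0.63 ± 0.14, adjusted p = 0.005. The scaffold gene *INCENP* (0.37 ± 0.11) and the targeting subunit gene *CDCA8* (0.52 ± 0.10) rose as well. *BIRC5*, which encodes survivin, had 0.34 ± 0.12 and was called with the block (adjusted p = 0.0163).

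Of the 5 spindle checkpoint genes, 4 rose. *BUB1*, a kinase at unattached kinetochores, had 61.3, 59.7 and 54.5 CPM with Wnt3A, against 49.7, 46.2 and 44.2 CPM with vehicle (0.32 ± 0.08, adjusted p = 0.0135). This call was lost with DESeq2 (adjusted p = 0.0515) and without Wnt3A library 1 (0.0874), Wnt3A library 2 (0.0579), vehicle library 2 (0.0626) or vehicle library 3 (0.0652). *BUB1B*, which encodes BUBR1 of the checkpoint complex, had 67.8, 56.9 and 59.5 CPM with Wnt3A, against 46.1, 38.1 and 40.6 CPM with vehicle (0.57 ± 0.09, adjusted p = 0.00018). *MAD2L1* (0.49 ± 0.14) and the kinase gene *TTK* (0.36 ± 0.11) were called, and *BUB3*, at 0.13 ± 0.06, was not.

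At the centromere and kinetochore, 4 of 6 genes rose. *CENPF*, a large protein of the outer kinetochore in G2 and mitosis, had 89.1, 97.7 and 89.8 CPM with Wnt3A, against 63.5, 65.1 and 65.2 CPM with vehicle, a change of 0.51 ± 0.08, adjusted p = 3.73e-05. The vehicle values of *CENPF* are nearly equal and lie well below all Wnt3A values. Of the Ndc80 complex, which holds the microtubule end, *NDC80* (0.67 ± 0.10) and *SPC25* (0.72 ± 0.14) were called and *NUF2* (0.31 ± 0.17) was not. The motor gene *CENPE* rose by 0.36 ± 0.09, and *CENPA*, the histone variant of centromeres, had 0.55 ± 0.19 and was called with the block (adjusted p = 0.014).

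For anaphase entry, the ubiquitin-conjugating enzyme gene *UBE2C* (0.53 ± 0.12) and the separase gene *ESPL1* (0.54 ± 0.11) rose. *CDC20*, the activator of the anaphase-promoting complex, had 33.1, 34.9 and 30.9 CPM with Wnt3A, against 29.9, 23.4 and 24.3 CPM with vehicle. The groups did not overlap, but the change of 0.35 ± 0.11 (adjusted p = 0.0522) missed the threshold, and it was called with the block (adjusted p = 0.0115). The securin gene *PTTG1* had 0.26 ± 0.12 and was not called.

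Kinesins, spindle proteins and condensin moved in the same direction. Of 8 kinesin genes, 6 rose, and *KIF20A*, a motor of the central spindle, had 79.7, 70.6 and 66.2 CPM with Wnt3A, against 53.9, 60.6 and 54.6 CPM with vehicle (0.36 ± 0.08, adjusted p = 0.00497). Without Wnt3A library 1 that call was lost (adjusted p = 0.0739). The kinesin genes that did not pass were *KIF14* (0.18 ± 0.12) and *KIF18A* (0.18 ± 0.11). Of 6 spindle assembly genes 5 rose, and *TPX2*, which activates Aurora A on microtubules, had 156, 147 and 154 CPM with Wnt3A, against 117, 101 and 117 CPM with vehicle (0.45 ± 0.08, adjusted p = 0.000246). Both cytokinesis genes rose. *ANLN*, an actin-binding protein of the contractile ring, had 266, 247 and 238 CPM with Wnt3A, against 206, 176 and 197 CPM with vehicle (0.38 ± 0.09, adjusted p = 0.00877). The *ANLN* call was lost without Wnt3A library 1 (adjusted p = 0.0623) or vehicle library 2 (0.0751). All 5 condensin genes rose, and *NCAPG* had 57.7, 57.7 and 60.2 CPM with Wnt3A, against 41.4, 37.3 and 45.6 CPM with vehicle (0.50 ± 0.11, adjusted p = 0.00225). The test passed in all of these named genes except *KIF14* and *KIF18A*. In each of them, *KIF14* and *KIF18A* included, the lowest Wnt3A value exceeded the highest vehicle value.

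**Figure D2:**
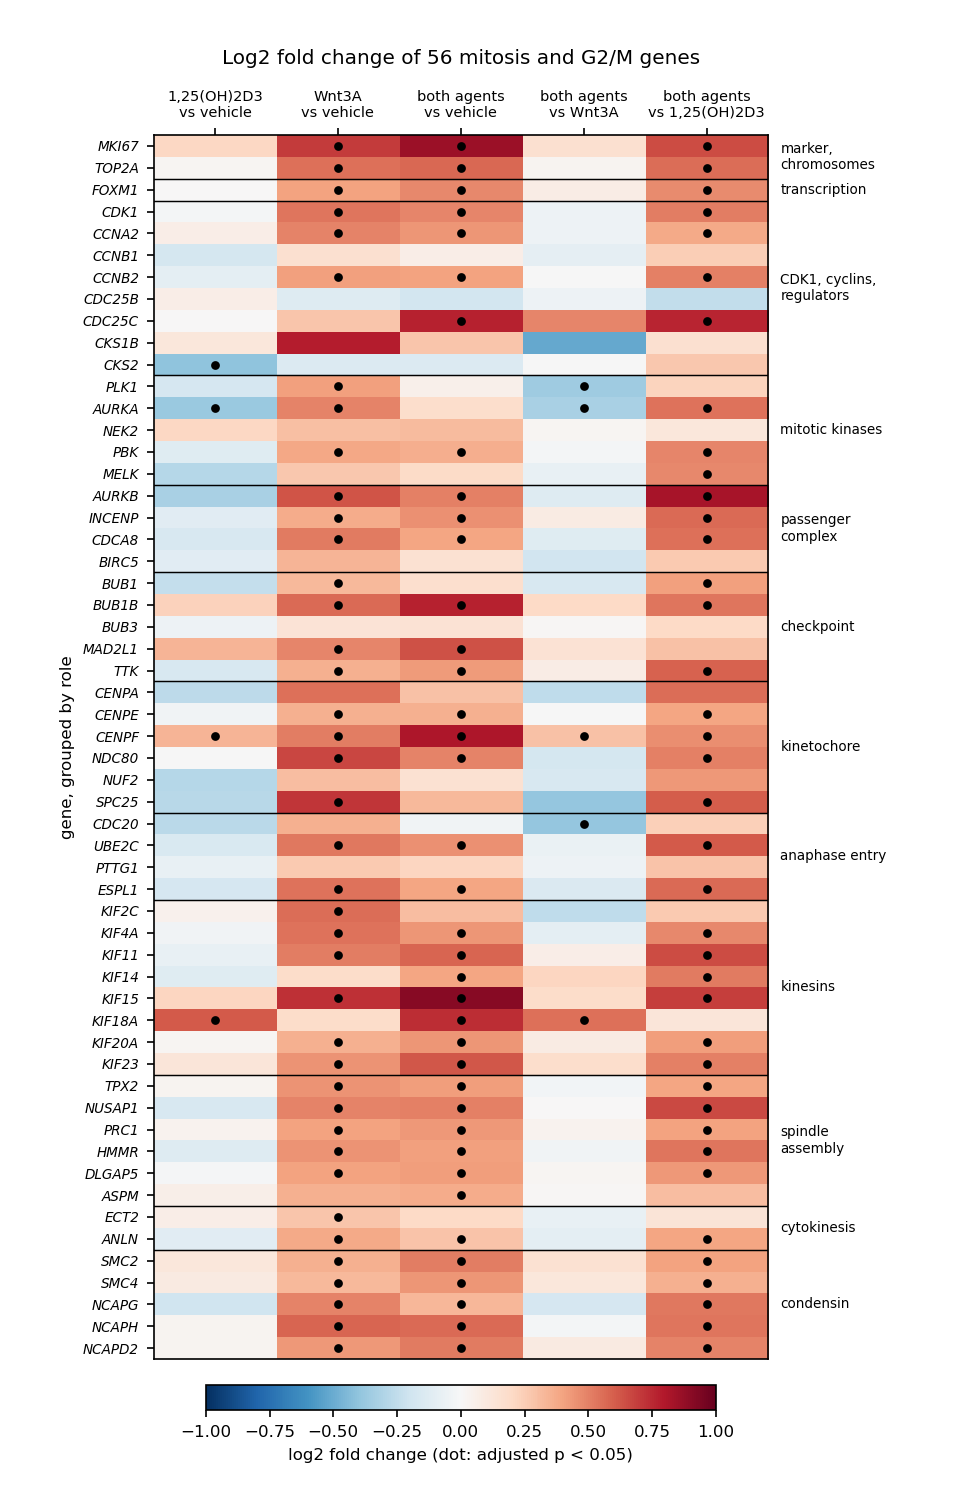
Colour gives the log2 fold change of each of the 56 genes in 5 comparisons, with genes grouped by role, and a dot marks an adjusted p below 0.05. Wnt3A against vehicle has 40 dots, both agents against vehicle 38 and both agents against 1,25(OH)2D3 39, all of higher expression, while 1,25(OH)2D3 against vehicle has 4 and both agents against Wnt3A has 5.

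1,25(OH)2D3 alone left the set as a whole near the vehicle level. The median log2 fold change was -0.03, with 24 genes above 0 and 32 below. Against vehicle, 2 genes rose, *KIF18A* and *CENPF*, and 2 fell, *CKS2* and *AURKA*, out of 56. Of all genes tested, 8.52% were called higher and 6.13% lower in this comparison, so the called share of the set lay below that of all genes in both directions. In 4 genes all 1,25(OH)2D3 libraries lay above all vehicle libraries and in 5 they lay below, against 15.0% and 13.7% of all genes tested.

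*KIF18A*, a kinesin that damps chromosome movements by shortening kinetochore microtubules, had 26.5, 24.6 and 24.7 CPM with 1,25(OH)2D3, against 16.7, 16.6 and 16.3 CPM with vehicle, a log2 fold change of 0.61 ± 0.11, adjusted p = 0.00018. The vehicle values lie within 1 CPM of each other and far below the treated ones. *CENPF* had 87.8, 81.6 and 76.1 CPM with 1,25(OH)2D3, against 63.5, 65.1 and 65.2 CPM with vehicle (0.34 ± 0.08, adjusted p = 0.0026). *AURKA* had 26.3, 27.0 and 26.6 CPM with 1,25(OH)2D3, against 37.4, 34.7 and 31.1 CPM with vehicle (-0.37 ± 0.10, adjusted p = 0.0103), and the call was lost without vehicle library 1 (adjusted p = 0.0547). *CKS2* had 12.5, 12.9 and 16.8 CPM with 1,25(OH)2D3, against 19.7, 18.1 and 18.0 CPM with vehicle (-0.40 ± 0.13, adjusted p = 0.04). For *CKS2* the groups did not overlap, yet the call was lost with DESeq2 (adjusted p = 0.13), with the 2 groups alone (0.0721) and without 1,25(OH)2D3 library 1 (0.169) or 2 (0.146) or vehicle library 1 (0.117) or 2 (0.0603).

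With the experiment as a block the count was 4 higher and 4 lower, against 13.1% and 11.2% of all genes tested. The genes added were *MKI67* and *BUB1B*, higher, and *MELK* and *BUB1*, lower. *MKI67* had 192, 174 and 195 CPM with 1,25(OH)2D3, against 144, 167 and 174 CPM with vehicle, which is 0.21 ± 0.08, adjusted p = 0.0642 without the block and an adjusted p of 0.00747 with it. *BUB1* had 41.0, 41.0 and 36.6 CPM with 1,25(OH)2D3, against 49.7, 46.2 and 44.2 CPM with vehicle, with -0.24 ± 0.09, adjusted p = 0.0706 without the block and an adjusted p of 0.0217 with it. *BUB1B* had 54.1, 44.5 and 47.5 CPM with 1,25(OH)2D3, against 46.1, 38.1 and 40.6 CPM with vehicle, and its values overlap (0.23 ± 0.10, adjusted p = 0.116, and 0.0285 with the block). The fit without the block also depended on a single library, with 7 calls when vehicle library 3 was left out.

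Of the other genes whose values were given for Wnt3A, none passed the test with the hormone alone. *PLK1* had 33.1, 31.0 and 29.0 CPM with 1,25(OH)2D3, against 36.3, 31.8 and 36.6 CPM with vehicle (-0.17 ± 0.10). *CDC20* had 19.5, 21.8 and 23.0 CPM with 1,25(OH)2D3, against 29.9, 23.4 and 24.3 CPM with vehicle (-0.27 ± 0.12), and *AURKB* had 10.9, 7.20 and 11.5 CPM, against 13.7, 11.999 and 11.5 CPM (-0.32 ± 0.17). The *CDC20* values did not overlap and the *PLK1* values did, and no test passed for these 3 genes. *TOP2A* had 227, 195 and 208 CPM with 1,25(OH)2D3, against 207, 210.4 and 204 CPM with vehicle (0.02 ± 0.06). *FOXM1* had 95.8, 88.1 and 90.5 CPM with 1,25(OH)2D3, against 89.0, 91.8 and 92.3 CPM with vehicle (0.01 ± 0.07). *CDK1* had 76.2, 73.5 and 73.7 CPM with 1,25(OH)2D3, against 83.5, 69.3 and 74.2 CPM with vehicle (-0.02 ± 0.07). In these 3 genes the groups overlap. *TPX2* had 126, 103 and 113 CPM with 1,25(OH)2D3, against 117, 101 and 117 CPM with vehicle (0.03 ± 0.08). *KIF20A* had 58.7, 57.8 and 55.0 CPM with 1,25(OH)2D3, against 53.9, 60.6 and 54.6 CPM with vehicle (0.02 ± 0.08). The *TPX2* and *KIF20A* values overlap as well. *CCNB1* had 65.6, 72.2 and 63.7 CPM with 1,25(OH)2D3, against 85.7, 76.8 and 65.7 CPM with vehicle (-0.18 ± 0.09). *ANLN* had 211, 162 and 161 CPM with 1,25(OH)2D3, against 206, 176 and 197 CPM with vehicle (-0.12 ± 0.09). *NCAPG* had 43.0, 35.8 and 29.0 CPM with 1,25(OH)2D3, against 41.4, 37.3 and 45.6 CPM with vehicle (-0.20 ± 0.11). These last 3 genes have negative changes, and their groups also overlap. *KIF14* had -0.12 ± 0.12, and none of these 9 genes passed.

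**Figure D3:**
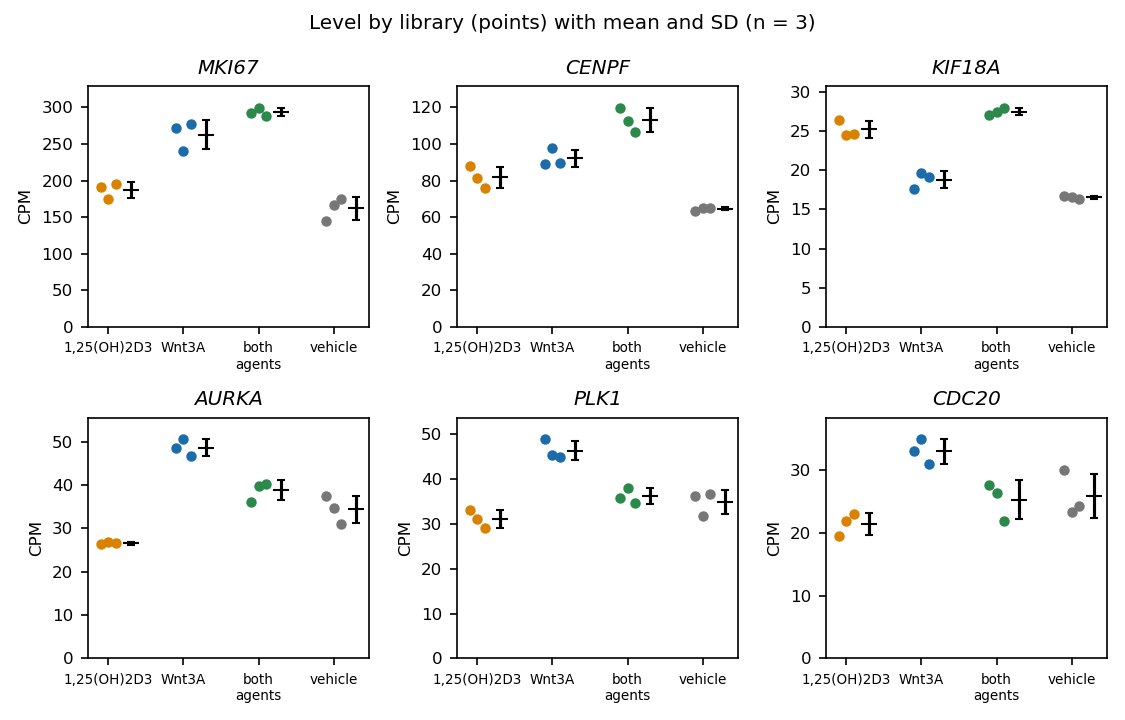
Points are the CPM of 1 gene in each library and the bars beside them the mean and SD of 3 libraries, on axes that start at 0. *KIF18A* sits at 24.6 to 26.5 CPM with 1,25(OH)2D3 and 27.1 to 28.0 CPM with both agents, above 17.6 to 19.7 CPM with Wnt3A and 16.3 to 16.7 CPM with vehicle, whereas *AURKA*, *PLK1* and *CDC20* are highest with Wnt3A alone.

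With both agents the set was again higher than with vehicle. In this comparison 38 of 56 genes rose and 0 fell, against 13.3% and 10.7% of all genes tested, and the median log2 fold change was 0.42, against 0.0016 for all genes. The rises ran between 0.28 (*ANLN*) and 0.91 (*KIF15*), or 1.22-fold to 1.88-fold. With the block, 41 rose, against 17.3% of all genes, and *CDC25B* fell, against 16.1% (-0.19, adjusted p = 0.0138). *MKI67* had 292, 299 and 289 CPM with both agents (0.86 ± 0.07, adjusted p = 2.25e-09 against vehicle), and *TOP2A* had 306, 309 and 312 CPM (0.58 ± 0.06, adjusted p = 1.13e-07). *FOXM1* had 131, 116 and 134 CPM (0.48 ± 0.07) and *CDK1* had 107, 102 and 109 CPM (0.49 ± 0.07) with both agents. For each of these 4 genes all 3 values lie above every vehicle value, as in 43 of the 56 genes and in 19.8% of all genes tested.

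By role, the combination raised 7 of 8 kinesin genes, 6 of 6 spindle assembly genes, 5 of 5 condensin genes, 4 of 8 genes of *CDK1*, cyclins and regulators, 3 of 5 checkpoint genes, 3 of 6 kinetochore genes, 3 of 4 passenger complex genes, 2 of 4 genes of anaphase entry, 1 of 2 cytokinesis genes and 1 of 5 mitotic kinase genes. *CENPF* had 119.7, 113 and 107 CPM with both agents, above every library of the other groups, and a change of 0.81 ± 0.07, adjusted p = 6.75e-09 against vehicle. *KIF18A* had 27.1, 27.5 and 28.0 CPM with both agents (0.73 ± 0.10, adjusted p = 6.77e-06). *BUB1B* had 74.7, 67.8 and 69.7 CPM (0.77 ± 0.09, adjusted p = 7.21e-07), also above every vehicle library. *AURKA* (36.2, 39.9 and 40.4 CPM with both agents, 0.18 ± 0.09), *PLK1* (35.8, 38.1 and 34.7 CPM, 0.05 ± 0.09) and *CDC20* (27.7, 26.4 and 21.8 CPM, -0.03 ± 0.12) did not pass against vehicle. For all 3 genes the values with both agents overlap the vehicle values.

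*BUB1* had 55.0, 53.2 and 49.3 CPM with both agents (0.17 ± 0.08) and *CCNB1* had 86.1, 82.1 and 71.3 CPM (0.07 ± 0.09), and neither passed. *AURKB* (19.6, 17.9 and 15.3 CPM with both agents) rose by 0.50 ± 0.15, *NCAPG* (57.0, 49.9 and 49.6 CPM) by 0.33 ± 0.11, *ANLN* (255, 226 and 223 CPM) by 0.28 ± 0.09 and *KIF14* (22.3, 23.3 and 26.0 CPM) by 0.39 ± 0.11. Each of these 4 calls was lost in some settings, with adjusted p up to 0.0712 for *AURKB*, 0.132 for *NCAPG*, 0.134 for *ANLN* and 0.0695 for *KIF14*. The libraries whose omission did so were both-agents library 1 or 2 for *AURKB*, both-agents library 1 or vehicle library 1 or 2 for *NCAPG*, both-agents library 1 or vehicle library 2 or 3 for *ANLN*, and both-agents library 3 for *KIF14*. DESeq2 also missed *NCAPG* (0.0548) and *KIF14* (0.0682). *TPX2* (159, 147 and 144 CPM with both agents) rose by 0.42 ± 0.08 and *KIF20A* (80.1, 73.7 and 76.2 CPM) by 0.44 ± 0.08. *CKS2* (17.0, 17.6 and 16.1 CPM with both agents) was below every vehicle library, as were 17.7% of all genes tested, but did not pass (-0.13 ± 0.13).

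What 1,25(OH)2D3 added on top of Wnt3A is given by both agents against Wnt3A alone. Here 2 of 56 genes rose, 3 fell and the median log2 fold change was -0.02, while 7.54% of all genes tested were called higher and 5.89% lower. *KIF18A* and *CENPF* rose again, with 0.55 ± 0.10, adjusted p = 0.000418 for *KIF18A* and 0.29 ± 0.07, adjusted p = 0.00612 for *CENPF*. Every library with both agents lay above every Wnt3A library for each of them. Such separation was seen upward in 10 of the 56 genes and downward in 10, against 17.0% and 16.0% of all genes tested.

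The genes that fell were *AURKA*, *PLK1* and *CDC20*. *AURKA* had 36.2, 39.9 and 40.4 CPM with both agents, against 48.6, 50.6 and 46.7 CPM with Wnt3A, a change of -0.32 ± 0.09, adjusted p = 0.014. *PLK1* had 35.8, 38.1 and 34.7 CPM with both agents, against 48.9, 45.4 and 44.9 CPM with Wnt3A (-0.36 ± 0.09, adjusted p = 0.00744). *CDC20* had 27.7, 26.4 and 21.8 CPM with both agents, against 33.1, 34.9 and 30.9 CPM with Wnt3A (-0.38 ± 0.11, adjusted p = 0.0227). The groups did not overlap for any of them, as in 16.0% of all genes tested in this direction, and these calls were close to the threshold. *AURKA* was lost with DESeq2 (adjusted p = 0.0605) and without Wnt3A library 1 (0.0544), Wnt3A library 2 (0.0733) or both-agents library 1 (0.0808). *PLK1* was lost without Wnt3A library 1 (0.0601) or both-agents library 3 (0.0523). *CDC20* was lost with DESeq2 (0.0756) and without Wnt3A library 1 (0.0779), Wnt3A library 2 (0.105), both-agents library 2 (0.0531) or both-agents library 3 (0.174).

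With the block the count was 11, with 6 higher and 5 lower, against 11.4% and 10.5% of all genes tested. It added *MKI67* (0.0294), *BUB1B* (0.0241), *CDC25C* (0.0224) and *KIF23* (0.0271) among the higher genes, and *SPC25* (0.0312) and *KIF2C* (0.0385) among the lower, where the values are adjusted p. DESeq2 called 3, and 2 or 3 were called when Wnt3A library 1, Wnt3A library 2 or both-agents library 3 was left out. *KIF18A* and *CENPF* were called in all of the alternatives run.

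Both estimates of the 1,25(OH)2D3 effect, without and with Wnt3A, share no library. Their log2 fold changes had the same sign in 42 of 56 genes, against 9398 of 12217 genes tested, and Pearson's r across the 56 genes was 0.618 (0.783 across all genes tested). These are descriptions across genes, which are not independent replicates. For Wnt3A, without and with 1,25(OH)2D3, the signs were the same in 55 of 56 genes, against 8437 of 12217, with r = 0.582 across the set and 0.675 across all genes. The exception was *CKS2*, which had -0.13 ± 0.13 without the hormone and 0.27 ± 0.13 with it.

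**Figure D4:**
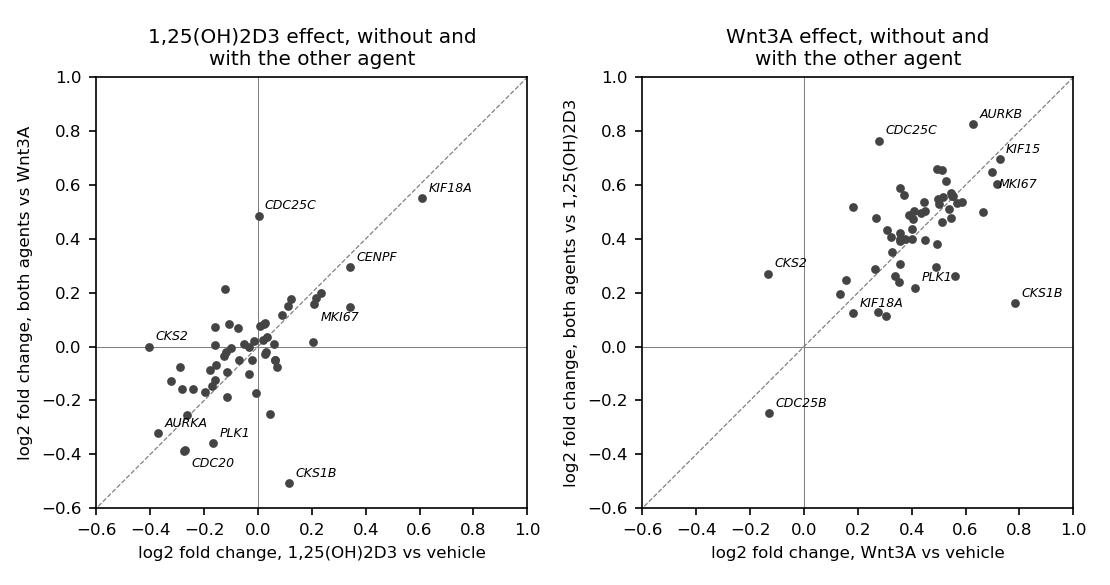
Each point is 1 of the 56 genes, at its log2 fold change for an agent without the other agent (x) and with it (y), with a dashed line of equal change. The left panel shows 1,25(OH)2D3, where *KIF18A* and *CENPF* are high and *AURKA* low on both axes, and the right panel shows Wnt3A, where 54 genes are above 0 on both axes and *CDC25B* is below 0 on both.

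Wnt3A acted in the presence of the hormone as well. Both agents against 1,25(OH)2D3 alone gave 39 genes higher and 0 lower of 56, against 5.21% and 4.04% of all genes tested, with a median log2 fold change of 0.48. The calls ran between 0.35 (*SMC4*, a condensin ATPase) and 0.83 (*AURKB*). *MKI67* and *TOP2A* changed by 0.65 ± 0.07, adjusted p = 6.73e-07 and 0.56 ± 0.06, adjusted p = 6.17e-07. *AURKA* had 0.55 ± 0.10, *CDK1* 0.51 ± 0.07 and *FOXM1* 0.47 ± 0.07, all called. *PLK1* (0.22 ± 0.10), *CDC20* (0.24 ± 0.12), *CCNB1* (0.25 ± 0.09) and *KIF18A* (0.12 ± 0.10) did not pass. With the block *CCNB1* was called (adjusted p = 0.0172), in a count of 43 higher and 1 lower, against 7.68% and 7.11% of all genes tested.

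The single agents set against each other gave the most calls among the comparisons of single groups. With Wnt3A, 45 of 56 genes were higher than with 1,25(OH)2D3 and 1 was lower, against 10.7% and 11.7% of all genes tested, and the median log2 fold change was 0.49. The largest difference was in *SPC25*, a subunit of the Ndc80 complex, named here after its values were seen, with 15.8, 16.8 and 14.3 CPM with Wnt3A, against 7.85, 8.87 and 6.78 CPM with 1,25(OH)2D3 (0.99 ± 0.15, adjusted p = 1.69e-05). *AURKB* (0.95 ± 0.15) and *AURKA* (0.87 ± 0.09, adjusted p = 9.42e-08) followed. *AURKA* had 48.6, 50.6 and 46.7 CPM with Wnt3A, against 26.3, 27.0 and 26.6 CPM with 1,25(OH)2D3, and *PLK1* and *CDC20* differed by 0.58 ± 0.09 and 0.62 ± 0.12. *KIF18A* was the gene lower with Wnt3A in the fit without the block, at 17.6, 19.7 and 19.1 CPM with Wnt3A, against 26.5, 24.6 and 24.7 CPM with 1,25(OH)2D3 (-0.43 ± 0.10, adjusted p = 0.00375). With the block the count was 50 higher and 2 lower, against 15.4% of all genes tested in each direction. *CENPF* (adjusted p = 0.0457) and *KIF14* (0.0458) were among the higher genes it added, and *CDC25B* (0.0108) was the lower one. *BUB1B* (0.33 ± 0.09) was no longer called without 1,25(OH)2D3 library 2 (adjusted p = 0.0739) or Wnt3A library 1 (0.0915), nor *KIF20A* (0.34 ± 0.08) without Wnt3A library 1 (0.0502).

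Whether the agents added up on the log2 scale was tested gene by gene as the interaction, the change with both agents minus the sum of the single changes. The edgeR test called 0 of 56 genes and 0 of 12217 overall. At an unadjusted p below 0.05 it counted 1 gene of the set and 354 of all genes tested, while DESeq2 called 0 and counted 0 of the set. With the block 18 of all genes were called (0.147%), 0 of them in the set, and 3 of the set had an unadjusted p below 0.05. The 2 smallest p values in the set were those of *CKS2* (0.40 ± 0.18) and *KIF14* (0.34 ± 0.16). *KIF14*, a kinesin of the midbody, had 16.2, 15.3 and 18.7 CPM with 1,25(OH)2D3, 19.4, 22.3 and 20.4 CPM with Wnt3A and 22.3, 23.3 and 26.0 CPM with both agents, against 19.1, 17.8 and 17.8 CPM with vehicle. *CKS2* had 15.0, 17.5 and 18.3 CPM with Wnt3A, which overlaps both the vehicle and the 1,25(OH)2D3 values given above. For the genes that fell on top of Wnt3A, the interaction was -0.19 ± 0.13 (*PLK1*), -0.11 ± 0.17 (*CDC20*) and 0.05 ± 0.13 (*AURKA*), and for *KIF18A* and *CENPF* it was -0.06 ± 0.15 and -0.05 ± 0.10.

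The effect of each agent was also averaged over both states of the other, as a comparison of 6 libraries with 6. It was added after the data were seen. That no interaction was called in the set does not show that there is none, since each group had only 3 libraries. Averaged in this way, 1,25(OH)2D3 raised 4 genes, *KIF18A* (0.58 ± 0.07), *CENPF* (0.32 ± 0.05), *BUB1B* (0.22 ± 0.07) and *MKI67* (0.18 ± 0.05). It lowered 5, *AURKA* (-0.35 ± 0.07), *SPC25* (-0.33 ± 0.11), *CDC20* (-0.33 ± 0.08), *PLK1* (-0.26 ± 0.07) and *BUB1* (-0.20 ± 0.06). Of all genes tested, 14.2% were called higher and 12.8% lower. DESeq2 did not call *SPC25* (adjusted p = 0.0956) or *BUB1* (0.0502). *SPC25* was also lost without 1,25(OH)2D3 library 3 (0.0625), Wnt3A library 2 (0.055) or vehicle library 1 (0.0677), *BUB1* without Wnt3A library 1 (0.0524) or both-agents library 3 (0.0557), and *BUB1B* without 1,25(OH)2D3 library 1 (0.0665) or vehicle library 2 (0.0623). With the block the counts were 7 higher and 9 lower, against 18.7% and 18.0% of all genes tested, and *CCNB1*, *ANLN* and *NCAPG* were among the genes added to the lower side (adjusted p = 0.0395, 0.0261 and 0.019). The averaged effect of Wnt3A was higher expression in 51 genes and lower expression in *CDC25B* (-0.19 ± 0.06, adjusted p = 0.0278), against 8.76% and 7.05% of all genes tested. With the block it was 52 higher and 1 lower, against 11.5% and 11.2%. Among the higher genes, *NUF2* was not called in 10 settings (adjusted p up to 0.169), *CCNB1* in 8 (0.108) and *PTTG1* in 6 (0.0855). DESeq2 was among these settings for each of them. *BIRC5* and *CDC20* were each lost in 1 setting (0.05003 and 0.0506). *CDC25B* had 134, 131 and 163 CPM with both agents and 139, 155 and 150.3 CPM with Wnt3A, against 149, 177 and 183 CPM with 1,25(OH)2D3 and 159, 166 and 161 CPM with vehicle, and these values overlap. *CDC25B* was not called in 7 of the settings tried. These were library totals alone as the scaling (adjusted p = 0.0558), and the fits without 1,25(OH)2D3 library 2 (0.0788) or 3 (0.0866), Wnt3A library 1 (0.0878), both-agents library 1 (0.0706) or 2 (0.0862), or vehicle library 2 (0.063).

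Other cell cycle genes were examined as lists of known genes, also chosen with earlier results of these data known. Against vehicle, 4.93% of all genes tested were called higher and 3.34% lower with Wnt3A, and 13.3% higher with both agents. Of 66 other mitotic genes, 39 rose with Wnt3A and 0 fell, with a median log2 fold change of 0.40, and 37 rose with both agents. Examples are *CEP55*, a protein of the midbody (0.56 ± 0.08), *CASC5*, the kinetochore scaffold KNL1 (0.54 ± 0.09), *CENPI* (0.71 ± 0.12) and *TACC3*, a stabiliser of spindle microtubules (0.51 ± 0.09). Of 50 genes of DNA replication and S phase, 29 rose with Wnt3A and 0 fell (median 0.40), and 42 rose with both agents (median 0.52). They include *RRM2*, a subunit of ribonucleotide reductase (0.58 ± 0.08 with Wnt3A), *UHRF1* (0.68 ± 0.11), the DNA polymerase gene *POLE* (0.49 ± 0.08) and the flap nuclease gene *FEN1* (0.49 ± 0.09). Of 19 tested E2F, DREAM, MuvB and NF-Y genes, 5 rose with Wnt3A and 0 fell, with a median of 0.12, and the examples are *MYBL2*, which encodes B-MYB (0.77 ± 0.16), *E2F2* (0.85 ± 0.21), *E2F1* (0.57 ± 0.14) and *E2F8* (0.65 ± 0.18). With 1,25(OH)2D3 alone the counts were 3 higher and 2 lower, 2 higher and 0 lower, and 0 higher and 1 lower in these lists, in the same order. Of all genes tested, 8.52% were higher and 6.13% lower with the hormone alone. With the block the S phase list had 9 higher and 0 lower with 1,25(OH)2D3, against 13.1% and 11.2% of all genes tested, and 40 higher with Wnt3A, against 7.36%.

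**Figure D5:**
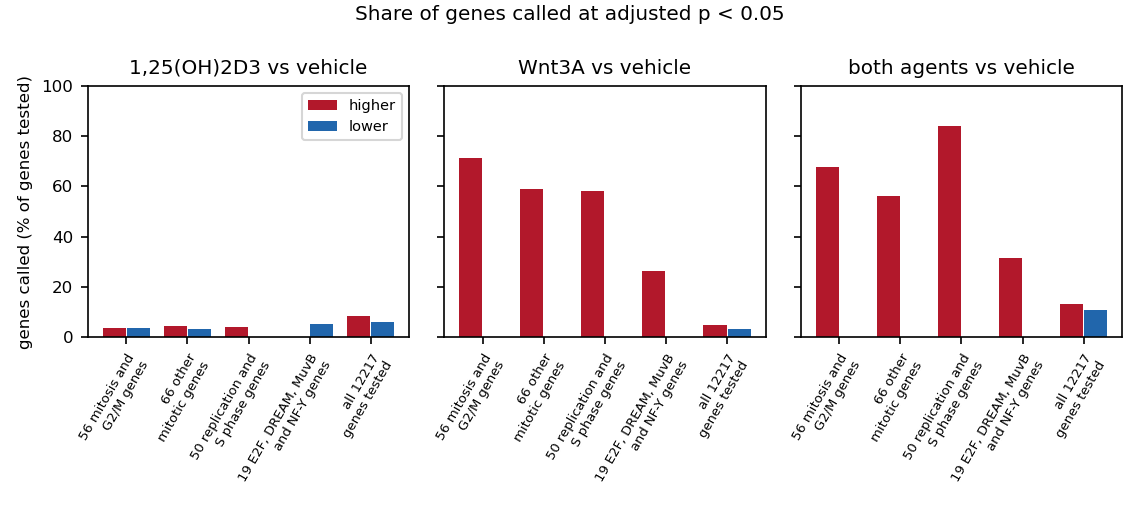
Bars give the percentage of tested genes called higher (red) or lower (blue) in each list for the 3 comparisons with vehicle. For the 56 mitosis and G2/M genes, 40 were called higher with Wnt3A and 38 with both agents, and with 1,25(OH)2D3 alone 2 were higher and 2 lower, against 4.93%, 13.3%, 8.52% and 6.13% of all genes tested.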

How the data were processed

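RNA of 12 CCD-18Co libraries (4 groups of 3) was measured by polyA+ RNA-seq. The authors sequenced single reads of 40 bases from a stranded kit and aligned them to GRCh37/hg19, per the labels with CASAVA 1.8. The deposited values are whole-number counts per gene, not normalized, and the study describes them as reads. Annotation, summing program and use of strand were not stated in the sources at hand. Between 78.2% and 80.9% of the values from 1 to 400 in each library were multiples of 40, so the counts were read as aligned bases, divided by 40 and rounded. Division leaves ratios as they are but sets the counting error.

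Genes kept by filterByExpr (minimum count of 10), 12217 of 21893, were tested with edgeR 4.0.16 in R 4.3.3 (TMM, robust quasi-likelihood F test, 1 fit of 12 libraries, no block), with p adjusted by Benjamini-Hochberg over all of them and called below 0.05. The study used DESeq2 with the same threshold. Alternatives were DESeq2 1.42.0, its size factors, library totals, no filter, a filter of 1 CPM in 3 libraries, the groups of a comparison alone, undivided values, the experiment as a block and each library left out. The tests were checked on simulated data with independent libraries, the same spread setting in every gene and no effect of the experiment. Changes were simulated only in genes with ample reads. That check therefore does not cover the pairing of libraries described below, genes of larger spread or the recovery of changes in low genes. The 2 averaged effects were added after the data were seen.

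The study numbers 3 independent experiments. After group means were removed, same-numbered libraries correlated at 0.203 to 0.48 (18 pairs, over 7650 genes averaging 20 CPM or more) and differently numbered ones at -0.37 to 0.00538 (36 pairs). The experiments therefore pair the libraries, and block values stand beside the counts and named calls they change. All cultures are of 1 line, so p values measure the spread between its cultures.

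The members and the other lists were chosen with earlier results of these data known. By rule, values in every library are given for 15 well-known genes over the roles, the 4 genes of smallest p in each comparison with vehicle, the 2 of smallest p in the interaction, in both agents against Wnt3A and in both agents against 1,25(OH)2D3, and every gene called against the majority direction. *SPC25* and *CDC25B* were added after their values were seen. Examples of other lists are those of smallest p for Wnt3A against vehicle. Of the list symbols, 5 were matched through older names.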

Additional observations from a re-analysis of the deposited data

How the results depend on the processing

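The 66 calls of single genes named by rule were each recomputed under 20 other settings. Of the 1320 recomputed calls 1280 stayed called in the same direction, 40 lost the threshold and 0 reversed. Counts of genes called stayed within 1.5 times the reported count for Wnt3A against vehicle, both agents against vehicle, both agents against 1,25(OH)2D3, Wnt3A against 1,25(OH)2D3 and the averaged Wnt3A effect. For 1,25(OH)2D3 against vehicle the count of 4 was 8 with the replicate block, and for both agents against Wnt3A the count of 5 was 11 with the replicate block and 3 with DESeq2. The averaged 1,25(OH)2D3 effect had 16 calls with the replicate block in place of 9. The block kept all 66 calls named by rule and added calls, most of them given beside the results. It also raised the counts over all genes tested, to 2959 against 1790 for 1,25(OH)2D3 against vehicle, 1654 against 1010 for Wnt3A against vehicle, 2682 against 1641 for both agents against Wnt3A and 1807 against 1129 for both agents against 1,25(OH)2D3. For the interaction it called 18 of all genes, and no filter called 9, in place of 0. With 1 library left out at a time the counts ran from 3 to 7 for 1,25(OH)2D3 against vehicle, 29 to 42 for Wnt3A against vehicle, 33 to 39 for both agents against vehicle, 2 to 5 for both agents against Wnt3A, 36 to 43 for both agents against 1,25(OH)2D3 and 40 to 48 for Wnt3A against 1,25(OH)2D3. They ran from 8 to 13 for the averaged 1,25(OH)2D3 effect and from 47 to 52 for the averaged Wnt3A effect, and the interaction stayed at 0. The cause of these shifts was not tested. Depth limits the low genes most, since *CKS1B* averaged 24.1 reads and *AURKB*, *SPC25* and *CKS2* had under 21 CPM in every library. The interaction could not be fitted from the groups of a comparison alone, since it uses all 4 groups.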

Other observations

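The averaged effect of 1,25(OH)2D3, a comparison of 6 libraries with 6, was also read in the other cell cycle lists, and the genes below were picked after their values were seen. Of 50 genes of DNA replication and S phase, 11 were higher and 0 lower, against 14.2% and 12.8% of all genes tested. They include *RFC5*, a subunit of the clamp loader (log2 fold change 0.42 ± 0.09), *GINS3* of the replicative helicase (0.41 ± 0.12) and *PCNA*, the sliding clamp (0.18 ± 0.05). The median of the list was 0.07. With the replicate block 17 were higher and 0 lower, against 18.7% and 18.0% of all genes tested.

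Of 66 other mitotic genes, 7 were higher and 7 lower, against 14.2% and 12.8% of all genes tested. *WEE1*, the kinase that restrains CDK1 before mitosis, rose by 0.43 ± 0.08 and the kinetochore gene *MIS12* by 0.41 ± 0.10, while *CDCA3* fell by 0.33 ± 0.08, *SKA1* by 0.31 ± 0.11 and *PKMYT1*, the other inhibitory kinase of CDK1, by 0.29 ± 0.09. Among 19 E2F, DREAM, MuvB and NF-Y genes, *RBL2* (0.21 ± 0.06) and *RBBP4* (0.20 ± 0.06) were higher, and *E2F7*, a repressor of the E2F family (-0.35 ± 0.07), and *LIN37* of MuvB (-0.34 ± 0.12) were lower.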
